A study of Mus musculus and Sus scrofa with 18 samples.

Results

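The 9 genes described here carry dopamine and adenosine signals in the projection neurons of the striatum: the dopamine receptors Drd1, Drd2 and Drd3, the adenosine receptor Adora2a, the orphan receptor Gpr6, the G protein subunit Gnal, the adenylyl cyclase Adcy5, the G protein regulator Rgs9 and the phosphatase inhibitor Ppp1r1b. They were chosen by name for this role, with earlier results of these data known, out of 55357 gene IDs in the mouse counts. All 9 were among the 19463 genes with enough counts to test. RNA came from the striatum of 9 mice, 3 in each group. WT mice received AAV9 carrying a control gRNA and no CasRx. The other 6 mice were heterozygous HD 140Q-KI animals on a C57BL/6J background, in which exon 1 of mouse Htt is replaced by the human exon with a lengthened CAG repeat. Untreated mice received AAV-CasRx with the control gRNA, and treated mice received AAV-CasRx with gRNAs against HTT. CasRx is an enzyme that cuts RNA at sites named by its gRNA, driven here by the CAG promoter, which is active in many cell types. Injections into the striatum of both sides were given at 6 months of age, and tissue was taken 1.5 months later. Since only HD mice were given CasRx, effects of the enzyme and of the mutant allele cannot be told apart in any comparison with WT.

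Striatal projection neurons fall into a class that expresses Drd1 and projects directly to the output nuclei of the basal ganglia, and a class that expresses Drd2, Adora2a and Gpr6 and takes the indirect route. The D1 receptor and the adenosine receptor encoded by Adora2a raise cAMP through the G protein subunit that Gnal encodes, the D2 receptor lowers it, and Adcy5 makes most of the cAMP in these cells. Ppp1r1b encodes DARPP-32, which blocks protein phosphatase 1 once protein kinase A has phosphorylated it, and Rgs9 shortens signals by speeding the shut-off of G proteins.

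Totals ran from 27184356 to 32102121 counts per library. Levels are given as CPM, the usual depth-scaled counts, after TMM scaling, a method that corrects for differences in RNA composition. Htt, the targeted gene, was at 189, 191 and 182 CPM in WT, 145, 140 and 150 CPM in untreated and 140, 130 and 136 CPM in treated mice. Its log2 fold change between treated and untreated mice was −0.10 (SE 0.06, adjusted p = 0.942 by edgeR's quasi-likelihood test). The counts come from the 3′ ends of transcripts and from both alleles, so they do not check the cut in exon 1. Y-linked genes had counts in the 3 WT mice and untreated replicate 1 and none in the other 5 mice. Sex and group thus cannot be told apart between treated and WT mice, and are mixed in part in the comparisons with untreated mice. Untreated replicate 3 stood apart by its T cell markers, whose summed level was 56.4 CPM against at most 13.1 CPM in any other mouse. WT replicate 1 stood apart by its cortical markers, which are given with the results they touch.

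The sequences before the start sites of the genes are shown because the genes moved together. RefSeq windows of 250 bases before to 50 after a start site on GRCm38.p6 were available for 6 of the 9 genes, in 7 windows, and 5 of them are printed here with matches to the searched motifs in capitals. Drd1 lies on the minus strand of chr13:54055609-54055908, Drd2 on the plus strand of chr9:49340153-49340452, Gpr6 on the minus strand of chr10:41072241-41072540, Rgs9 on the minus strand of chr11:109298132-109298431 and Adcy5 on the plus strand of chr16:35154614-35154913.
Drd1: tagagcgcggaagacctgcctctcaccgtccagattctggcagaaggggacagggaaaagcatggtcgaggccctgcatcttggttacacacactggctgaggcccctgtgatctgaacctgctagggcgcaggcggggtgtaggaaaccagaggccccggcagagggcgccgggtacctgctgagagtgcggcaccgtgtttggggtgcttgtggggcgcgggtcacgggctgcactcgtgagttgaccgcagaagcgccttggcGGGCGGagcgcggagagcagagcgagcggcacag
Drd2: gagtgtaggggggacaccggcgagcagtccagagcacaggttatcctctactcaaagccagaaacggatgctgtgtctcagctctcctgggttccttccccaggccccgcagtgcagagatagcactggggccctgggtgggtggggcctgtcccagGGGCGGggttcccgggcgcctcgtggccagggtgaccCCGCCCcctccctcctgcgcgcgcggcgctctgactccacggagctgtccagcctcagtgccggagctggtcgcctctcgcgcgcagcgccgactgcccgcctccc
Gpr6: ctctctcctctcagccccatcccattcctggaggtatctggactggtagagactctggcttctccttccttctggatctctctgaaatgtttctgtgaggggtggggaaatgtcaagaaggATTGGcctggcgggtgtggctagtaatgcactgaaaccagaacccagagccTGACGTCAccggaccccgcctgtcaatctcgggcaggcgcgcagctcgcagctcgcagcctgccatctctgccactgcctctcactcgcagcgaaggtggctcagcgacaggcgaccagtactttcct
Rgs9: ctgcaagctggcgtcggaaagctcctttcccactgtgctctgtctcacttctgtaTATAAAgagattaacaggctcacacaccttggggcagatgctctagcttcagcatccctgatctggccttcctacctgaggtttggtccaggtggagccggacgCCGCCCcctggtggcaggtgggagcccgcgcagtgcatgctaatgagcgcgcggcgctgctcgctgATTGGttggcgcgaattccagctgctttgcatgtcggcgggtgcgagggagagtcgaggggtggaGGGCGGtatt
Adcy5: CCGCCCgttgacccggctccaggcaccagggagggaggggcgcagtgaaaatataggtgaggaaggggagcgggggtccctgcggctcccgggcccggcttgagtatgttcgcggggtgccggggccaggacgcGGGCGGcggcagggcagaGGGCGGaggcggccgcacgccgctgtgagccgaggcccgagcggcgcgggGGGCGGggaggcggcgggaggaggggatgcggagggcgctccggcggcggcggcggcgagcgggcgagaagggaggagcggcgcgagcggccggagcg
The motifs, searched on both strands, were the GC box GGGCGG, the CCAAT box CCAAT, the TATA box TATAAA, the cAMP response element TGACGTCA and its shorter form TGACG, which the full element contains. The GC box was in 5 of the 7 windows, both windows of Drd1 among them, and in 35.7% of 32851 windows of the same length over all genes. Windows with the box were 59.3% to 79% G and C, beside a median of 52.7% over all windows. Gpr6, at 58.7%, and Drd3, which is not printed, at 42%, had no GC box. The CCAAT box was in 3 windows (37.4% of all windows) and the TATA box in 1, that of Rgs9 (13.6%). Gpr6 was the one gene with a cAMP response element, 78 bases before its start site, against 1.79% of all windows. The shorter form occurred within it and in no other of the 7 windows (20.8% of all windows). Matches are letters in a window and were not tested for use.

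Relative to the whole library, the dopamine receptor genes were lower in untreated HD mice than in WT mice. Drd1 did not keep that direction when scaled to the summed counts of 13 other projection neuron genes. On that scale 94.3% of all tested genes were called higher in untreated mice. Treated mice lay between the groups in mean level. Drd1, the receptor of the direct pathway, was at 149, 189 and 245 CPM in WT, 57.5, 74.2 and 56.9 CPM in untreated and 94.8, 90.8 and 98.9 CPM in treated mice. The 3 groups did not overlap, and the order WT, treated, untreated held for every mouse. Drd1 fell by 1.63 on the log2 scale in untreated mice (SE 0.17, adjusted p = 0.000984 by edgeR) and by 1.03 in treated mice (SE 0.17, adjusted p = 0.0127), each against WT. Drd2, the receptor of the indirect pathway, was at 178, 270 and 219 CPM in WT, 56.6, 66.6 and 56.4 CPM in untreated and 86.3, 93.4 and 100 CPM in treated mice. Again no groups overlapped. Drd2 fell by 1.89 in untreated (SE 0.14, adjusted p = 0.000262 by edgeR) and by 1.25 in treated mice (SE 0.14, adjusted p = 0.00331), so that untreated mice held 26.9% and treated mice 42.0% of its WT mean. For Drd1 these shares were 32.4% and 48.9%. In bulk tissue, fewer cells of a type and less RNA per cell cannot be told apart.

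Drd3, the dopamine receptor best known from the ventral striatum, was near the limit of these libraries. It had 16, 79 and 47 reads in WT, 13, 12 and 15 in untreated mice and 28, 17 and 18 in treated mice. The Poisson interval of 16 reads, 9.15 to 26.0, which covers counting error only, spans all 3 untreated values. Untreated mice did lie below every WT mouse, and Drd3 fell by 1.88 on the log2 scale (SE 0.51, adjusted p = 0.0469 by edgeR). That call held in 4 of 19 alternatives and was lost when any mouse other than WT replicate 1 was left out (adjusted p from 0.0696 to 0.153). In treated mice the log2 fold change from WT was −1.33 (SE 0.49, adjusted p = 0.159), and without WT replicate 1 it was −1.74 (adjusted p = 0.0296).

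Adora2a and Gpr6, the other receptors of the indirect pathway, kept the smallest shares of their WT levels among the 9 genes. Adora2a, whose receptor opposes that of Drd2, was at 247, 302 and 299 CPM in WT, 58.5, 76.1 and 59.3 CPM in untreated and 108, 110 and 109 CPM in treated mice. The treated mice were nearly identical to each other and apart from both other groups. Adora2a fell by 2.13 in untreated (SE 0.12, adjusted p = 0.000107 by edgeR), the gene with the 2nd smallest P of all tested, and by 1.37 in treated mice (SE 0.11, adjusted p = 0.00174). Gpr6, a receptor that raises cAMP without a known hormone, was at 57.4, 95.1 and 76.8 CPM in WT, 15.6, 20.5 and 16.1 CPM in untreated and 29.3, 27.5 and 28.6 CPM in treated mice. Its groups did not overlap either. It fell by 2.13 in untreated (SE 0.18, adjusted p = 0.000343 by edgeR) and by 1.42 in treated mice (SE 0.17, adjusted p = 0.00389). Untreated mice held 22.9% of the WT mean of Adora2a and 22.8% of that of Gpr6, and treated mice 38.6% and 37.3%.

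**Figure D1:**
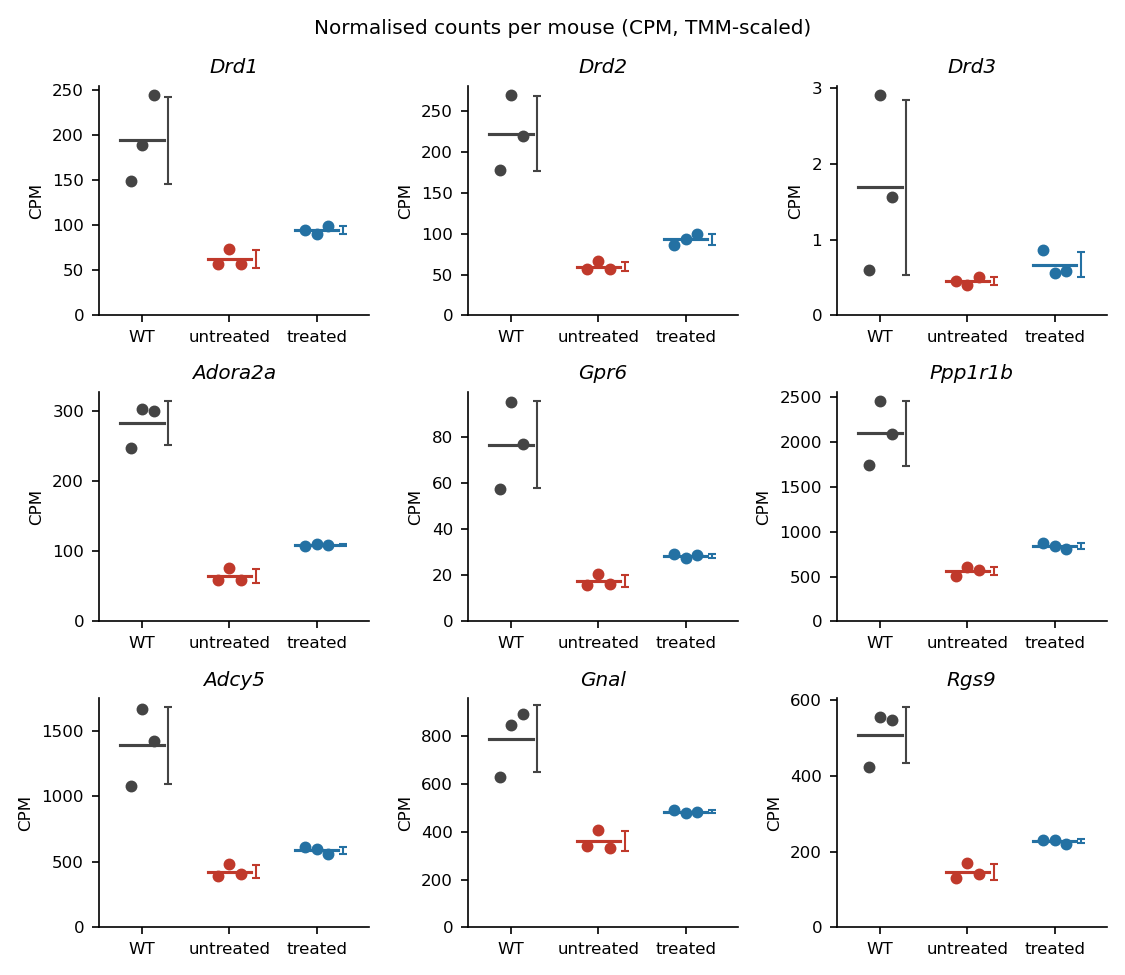
Level of each of the 9 genes in each mouse, in CPM after TMM scaling on a linear axis from 0, for WT, untreated and treated mice. Points are mice, horizontal lines are group means and brackets are ± 1 SD (n = 3). Apart from Drd3, whose WT and treated mice overlap, WT mice are highest, treated mice lie between and untreated mice are lowest.

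The genes that pass the receptor signal on were lower as well, with Gnal the least reduced. Scaled to the summed counts of 13 other projection neuron genes, Gnal alone of these was higher in untreated and treated than in WT mice. On that scale 94.3% and 87.3% of all tested genes were called higher. Before that scaling, the median log2 fold change of the 13 genes was −1.21 in untreated and −0.70 in treated mice, close to that of Gnal. Gnal encodes the stimulatory G protein subunit Gαolf, and was at 629, 844 and 891 CPM in WT, 340, 407 and 330 CPM in untreated and 490, 478 and 484 CPM in treated mice. No groups overlapped. It fell by 1.13 in untreated (SE 0.13, adjusted p = 0.00148 by edgeR) and by 0.70 in treated mice (SE 0.13, adjusted p = 0.0225), which left 45.6% and 61.4% of the WT mean. Adcy5, the cyclase that Gαolf activates, was at 1080, 1670 and 1420 CPM in WT, 393, 481 and 406 CPM in untreated and 611, 596 and 561 CPM in treated mice. Its groups were separate, at 30.7% and 42.4% of the WT mean in untreated and treated mice. It fell by 1.71 (SE 0.15, adjusted p = 0.000387 by edgeR) and by 1.24 (SE 0.15, adjusted p = 0.00382).

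Rgs9, the regulator that ends G protein signals in these neurons, was at 424, 555 and 549 CPM in WT, 130, 170 and 141 CPM in untreated and 232, 232 and 221 CPM in treated mice. The 3 groups did not overlap. Rgs9 fell by 1.79 in untreated (SE 0.13, adjusted p = 0.000226 by edgeR) and by 1.16 in treated mice (SE 0.13, adjusted p = 0.00324), to 28.9% and 44.9% of its WT mean. Ppp1r1b was at 1740, 2460 and 2090 CPM in WT, 511, 606 and 568 CPM in untreated and 869, 841 and 807 CPM in treated mice. Here too each group was separate from the others. Ppp1r1b fell by 1.90 (SE 0.13, adjusted p = 0.000172 by edgeR) and by 1.32 (SE 0.13, adjusted p = 0.00261), to 26.8% and 40.0% of WT. Exons of Ppp1r1b and 1700003D09Rik overlap on opposite strands, and since the strand setting of the counting is not given in the sources used here, reads of the pair cannot be told apart. 1700003D09Rik was at 15.7 to 24.9 CPM in WT mice. The same holds for Gnal and Mppe1, at 17.6 to 22.6 CPM in WT mice.

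Read against all genes, 9 of 9 passed an adjusted p of 0.05 as lower in untreated mice, where 6.10% of all tested genes did. In treated mice it was 8 of 9, all but Drd3, where 2.78% of all genes were called lower than in WT. The groups did not overlap for 9 genes in untreated and 8 in treated mice, with 15.1% of all tested genes separate and lower in each comparison. The median log2 fold change of the 9 genes was −1.88 in untreated and −1.25 in treated mice, beside 0.02 and 0.00 over all tested genes. The study's text gives 2 rules, a change of at least 2-fold with an unadjusted P under 0.05 or under 0.01. By the first, 9 genes were lower in untreated mice (2.58% of all genes) and 8 in treated mice (1.38%), all but Gnal. By the stricter rule 9 were lower in untreated mice (1.75%) and 7 in treated mice (0.925%), without Gnal and Drd3. Both comparisons share the WT mice, and the genes were chosen with earlier results of these data known.

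These directions are relative to the whole library. Scaled instead to the summed counts of 13 other projection neuron genes, which themselves fell, 3 of the 9 genes passed in untreated mice: Adora2a (log2 fold change −0.48, adjusted p = 0.00169 by edgeR) and Gpr6 (−0.48, adjusted p = 0.0101) as lower, and Gnal as higher (0.52, adjusted p = 0.00122). On that scale Drd1 turned to 0.04 (adjusted p = 0.784), and Gnal was the 1 gene called in treated mice, at 0.45 (adjusted p = 0.00407). The same scaling moved the median of all genes by 1.66 in untreated and 1.13 in treated mice, so that 94.3% and 87.3% of all tested genes were called higher on it. Scaling moves every gene nearly alike, so taking that shift away returns the first values and tells nothing further. The 13 genes fell by unlike amounts, with a median log2 fold change before that scaling of −1.21 in untreated and −0.70 in treated mice. Scaling to 10 pan-neuronal genes left 9 and 7 calls, with Gnal lost in treated mice (adjusted p = 0.0524 by edgeR). With pan-neuronal scaling, 20.8% of all tested genes were called lower in untreated and 1.38% in treated mice.

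Some calls depended on what was fitted or on 1 mouse. With the share of Y-linked counts as a covariate, none of the 9 genes passed in treated against WT mice, at log2 fold changes from −0.82 to −1.66 for the 8 genes called without it (adjusted p from 0.0736 to 0.443). Only untreated replicate 1 separates sex from genotype in that fit. Drd1 lost its call in treated mice when any treated mouse was left out (adjusted p from 0.0589 to 0.0832), and Gnal also without WT replicate 2 or 3 (adjusted p from 0.0548 to 0.118).

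**Figure D2:**
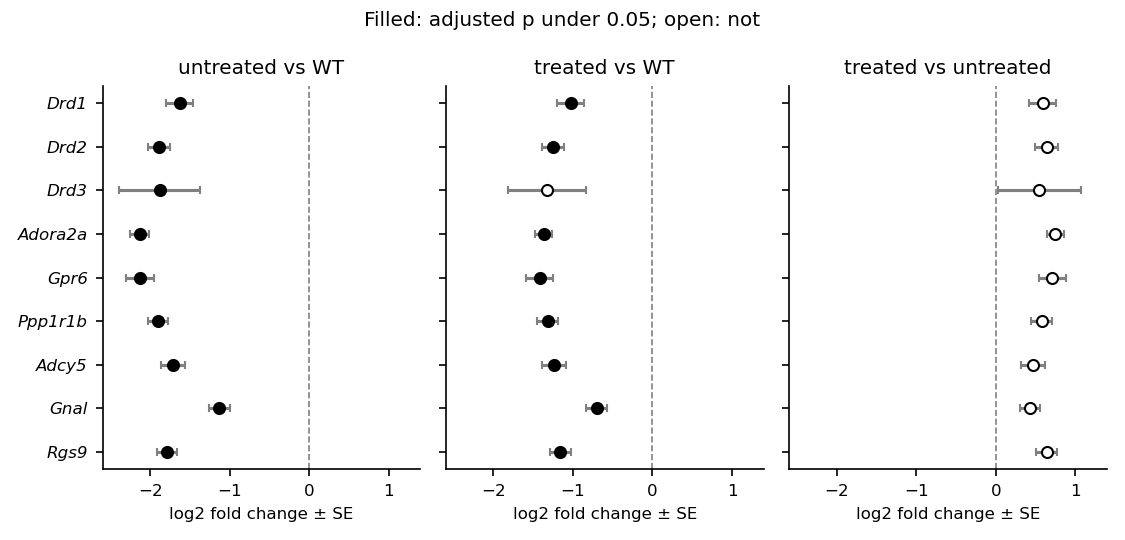
Log2 fold change of each gene with its SE in the 3 comparisons, from edgeR on TMM-scaled counts. Filled points passed an adjusted p of 0.05 and open points did not. All points lie left of 0 in both comparisons with WT and right of 0 between treated and untreated mice. When scaled to other projection neuron genes, Drd1 and Gnal lie right of 0 against WT, and Adcy5 and Gnal left of 0 between treated and untreated mice.

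Between treated and untreated mice, which asks whether the gRNAs against HTT changed the genes in HD mice, every treated mouse lay above every untreated mouse for all 9 genes, with 6.92% of all tested genes separate and higher. None of the 9 passed an adjusted p of 0.05 by edgeR, and neither did any other gene (0.00% of those tested). At an unadjusted P under 0.05, 8 of the 9 were higher, all but Drd3, where 2.50% of all tested genes were. The largest of these differences was that of Adora2a, at 0.75 on the log2 scale (SE 0.11, unadjusted P = 7.73e-05, adjusted p = 0.348), which had the 4th smallest P of all tested genes. Gpr6 followed at 0.71 (SE 0.17, unadjusted P = 0.00243, adjusted p = 0.776), then Drd2 and Rgs9, both at 0.64.

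The smaller differences were those of Drd1, at 0.59 (SE 0.17, adjusted p = 0.829), and of Ppp1r1b, at 0.58 (SE 0.13, adjusted p = 0.736). Adcy5 differed by 0.47 (SE 0.15, adjusted p = 0.886) and Gnal by 0.43 (SE 0.13, adjusted p = 0.886). For Drd3 the 95% interval of 0.55 ran from −0.74 to 1.83. The median over the 9 genes was 0.59, beside −0.01 over all tested genes. DESeq2 called 5 of the 9 as higher, among 48 genes in all: Adora2a (adjusted p = 7.08e-06), Rgs9 (0.00194), Ppp1r1b (0.00471), Drd2 (0.0154) and Gpr6 (0.0411). Scaled to other projection neuron genes, none of the 9 reached an unadjusted P of 0.05 and Adcy5 and Gnal turned to −0.04 and −0.07. An exact permutation test of 3 mice against 3 cannot go below p = 0.1.

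Within a mouse, the genes of the indirect pathway did not all keep their proportion to Drd1. For each Drd1 read there were 1.66, 1.60 and 1.22 reads of Adora2a in WT, 1.02, 1.03 and 1.04 in untreated mice and 1.14, 1.21 and 1.10 in treated mice. The ratio was thus lower in every HD mouse than in any WT mouse, and higher in every treated than in any untreated mouse. For Gpr6 the ratio was 0.386, 0.504 and 0.314 in WT, 0.272, 0.276 and 0.284 in untreated mice and 0.309, 0.303 and 0.289 in treated mice, with no overlap of groups. Drd2 was different, with overlapping ratios to Drd1 of 0.894 to 1.43 in WT, 0.897 to 0.991 in untreated and 0.910 to 1.03 in treated mice. The ratio of Adora2a to Drd2 overlapped in every comparison, as did those of Adcy5, Rgs9 and Ppp1r1b to Drd1. That of Gpr6 to Drd2 was lower in untreated than WT mice and overlapped in the other comparisons.

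Gnal moved the other way. It had 4.23, 4.47 and 3.64 reads for each Drd1 read in WT, 5.92, 5.49 and 5.81 in untreated mice and 5.16, 5.26 and 4.90 in treated mice. Against Adora2a the change was larger, from 2.55, 2.80 and 2.98 in WT to 5.81, 5.35 and 5.57 in untreated mice and 4.52, 4.34 and 4.46 in treated mice. Neither ratio overlapped between groups. Against Gnas, the stimulatory subunit used by most other cells, Gnal was instead lower, at 0.900, 1.36 and 1.63 in WT, 0.381, 0.510 and 0.442 in untreated mice and 0.722, 0.698 and 0.721 in treated mice. These ratios are descriptions without a test, and a ratio within a library shows unequal change only.

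**Figure D3:**
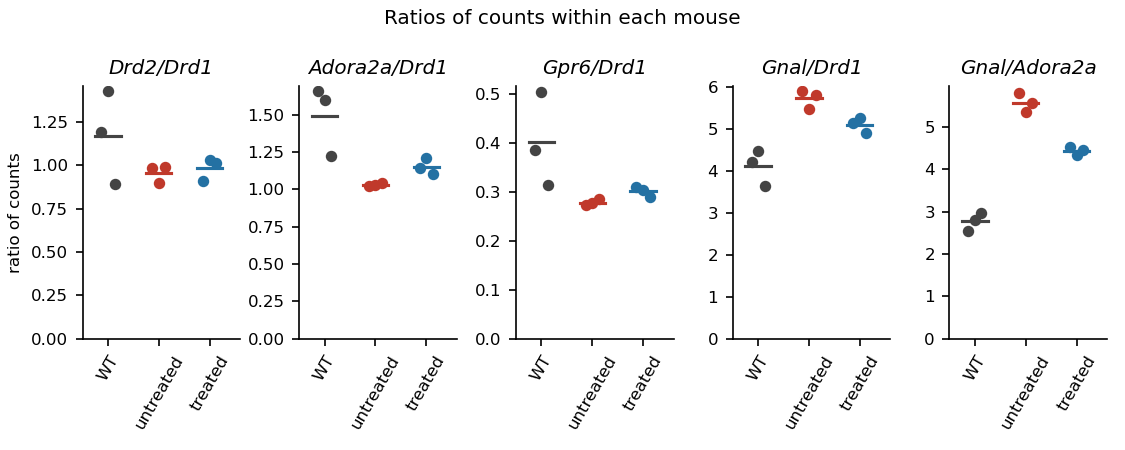
Ratio of the counts of 2 genes within each mouse, on linear axes from 0, for WT, untreated and treated mice. Points are mice and lines are group means (n = 3). Drd2/Drd1 overlaps between groups, Adora2a/Drd1 and Gpr6/Drd1 are highest in WT, and Gnal/Drd1 and Gnal/Adora2a are highest in untreated mice.

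The 13 projection neuron markers outside the 9 genes were lower alongside them, with 11 of 13 called in untreated and 7 of 13 in treated mice. Their summed level was 5470 to 7360 CPM in WT, 1910 to 2300 CPM in untreated and 2890 to 2990 CPM in treated mice. As a share of that sum, Adora2a was at 4.50%, 4.48% and 4.07% in WT, 2.93%, 3.30% and 3.10% in untreated mice and 3.68%, 3.80% and 3.64% in treated mice. Gnal took 11.5% to 12.5% in WT, 17.0% to 17.7% in untreated and 16.2% to 16.6% in treated mice. The shares of Drd1, Adcy5 and Ppp1r1b overlapped in every comparison. Of 8 interneuron markers, Chat, the enzyme that makes acetylcholine, and Nos1, the neuronal nitric oxide synthase, were called lower in untreated mice. Over all tested genes that share was 6.10%. None of the 8 was called higher, with a median log2 fold change of −0.29. Npy (0.43) and Pvalb (0.38) were the markers above 0. In treated mice Chat alone was called lower, beside 2.78% of all tested genes.

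Markers of cortical excitatory neurons moved in the opposite direction to the 9 genes. The summed level of 6 markers was 895, 379 and 205 CPM in WT, 1220, 1030 and 1220 CPM in untreated and 759, 764 and 698 CPM in treated mice. All 6 were higher in untreated than WT mice at an unadjusted P under 0.05, as were 15.0% of all tested genes, and 1, Neurod2, passed the adjusted threshold (log2 fold change 1.68, adjusted p = 0.0360 by edgeR). None of the 6 was at 0 in any mouse. The 9 genes summed to 4510, 6380 and 5790 CPM in WT, 1560, 1900 and 1630 CPM in untreated and 2520, 2470 and 2410 CPM in treated mice. WT replicate 1 thus had the highest cortical level and the lowest sum of the 9 genes among WT mice, with both values above those of every treated mouse. The part of cortical tissue in the levels of the 9 genes was not tested. With the cortical level as a covariate, 7 genes stayed called in each comparison with WT, while Gnal (−0.73, adjusted p = 0.0646) and Drd3 (−0.81, adjusted p = 0.713) lost their calls in untreated mice. Pan-neuronal markers summed to 5320 to 6950 CPM in WT, 6860 to 8280 CPM in untreated and 6280 to 6700 CPM in treated mice.

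T cell markers summed to 0.0756 to 0.731 CPM in WT, 3.12 to 56.4 CPM in untreated and 4.17 to 13.1 CPM in treated mice, with up to 5 of the 6 at 0 in a WT mouse. Without untreated replicate 3 the calls in untreated mice were 8 of 9, with Drd3 lost. Choroid plexus markers, from tissue beside the striatum, ran from 65.4 to 3750 CPM in WT, 35.1 to 186 CPM in untreated and 38.6 to 1260 CPM in treated mice. The part of these cells in the levels of the 9 genes was not tested.

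**Figure D4:**
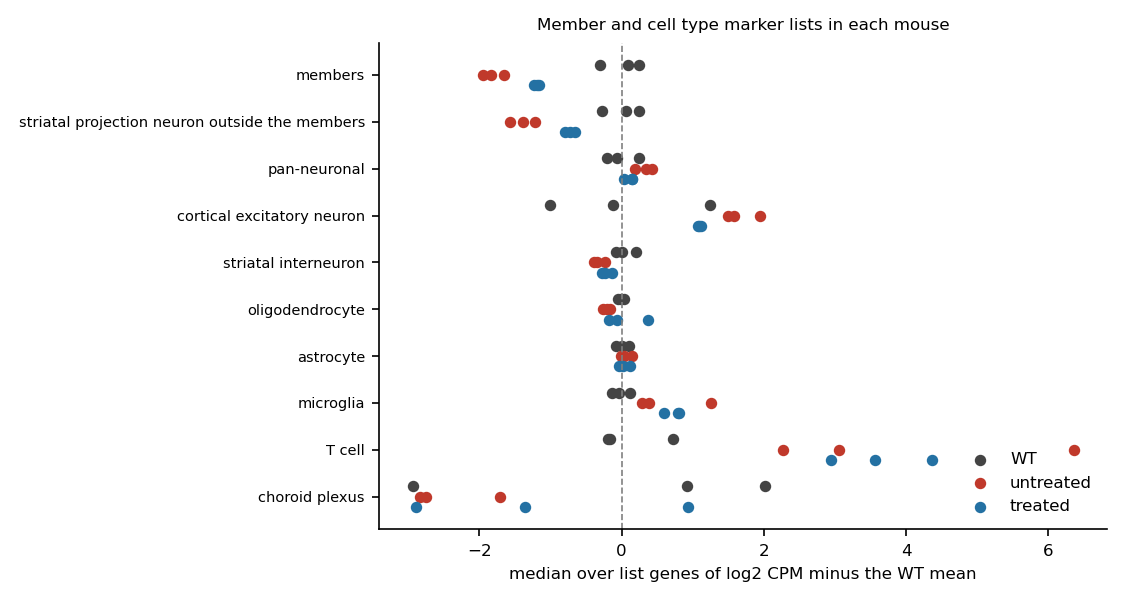
Median over the genes of each list of log2 CPM minus the WT mean, in each mouse, for the 9 genes (members) and for cell type markers. Points are mice. The 9 genes and the other projection neuron markers are lowest in untreated mice, cortical markers spread widely in WT mice, and T cell markers are highest in untreated replicate 3.

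Of 107 tested genes in 11 lists around the same pathway, 26 fell and 5 rose in untreated against WT mice, and 18 fell and 2 rose in treated mice. The share of all tested genes called lower was 6.10% in untreated and 2.78% in treated mice. The share called higher was 4.58% in untreated and 0.904% in treated mice. The medians of the 107 were −0.08 and −0.06. Leaving out untreated replicate 3 gave 20 calls in place of 31 in untreated mice. In treated mice the 20 calls became 6, 7 and 6 without treated replicate 1, 2 and 3, 11 without WT replicate 2 and 13 without untreated replicate 2. Scaled to other projection neuron genes, 102 and 94 were called, all higher, as were 94.3% and 87.3% of all tested genes on that scale, so these counts say nothing particular to the lists.

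Among receptors, none of the 4 tested relatives in the dopamine and adenosine receptor list passed. Drd5, which signals like Drd1, had a log2 fold change of −0.28 (SE 0.31, adjusted p = 0.594) in untreated mice, and Adora1, the inhibitory A1 receptor, one of 0.16 (SE 0.13, adjusted p = 0.461). Drd4 had too few reads to test, with a mean of 0.261 ± 0.131 CPM (SD, n = 3) in WT mice. Gpr3 and Gpr12, the closest relatives of Gpr6, fell by 0.54 (adjusted p = 0.0156 by edgeR) and 0.76 (adjusted p = 0.0279) in untreated mice. In treated mice Gpr3 had a log2 fold change of −0.81 from WT (adjusted p = 0.00496).

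G protein subunit genes were called in both directions in untreated mice. Gng7, the gamma subunit that pairs with Gαolf, fell by 1.34 in untreated (SE 0.14, adjusted p = 0.00101 by edgeR) and by 0.73 in treated mice (SE 0.14, adjusted p = 0.0263). Ric8b, a chaperone of Gαolf, fell by 0.90 (adjusted p = 0.000681) and 0.59 (adjusted p = 0.00872), and Gnb5, the beta subunit that partners Rgs9, by 1.04 (adjusted p = 0.000343) and 0.78 (adjusted p = 0.00324). Gnas rose by 0.39 in untreated mice (SE 0.10, adjusted p = 0.0428 by edgeR) and was at 0.13 in treated mice (adjusted p = 0.523). It was at 547 to 698 CPM in WT, 748 to 894 CPM in untreated and 671 to 684 CPM in treated mice. The other subunit genes called in untreated mice were Gnao1 and Gnb2, lower, and Gng3, higher. Of 9 other adenylyl cyclases, Adcy3 alone passed in untreated mice, where it fell by 0.49 (adjusted p = 0.0120).

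Among the other RGS genes, 5 fell and 1 rose in untreated mice, where 6.10% and 4.58% of all tested genes did. Rgs14 fell by 1.41 (SE 0.16, adjusted p = 0.00121 by edgeR), Rgs8 by 0.86 (adjusted p = 0.00178) and Rgs4 by 0.61 (adjusted p = 0.00235). Rgs14 stood at −1.38 from WT in treated mice (adjusted p = 0.00331). The gene that rose was Rgs5. In the protein kinase A list, Akap5, which anchors the kinase near receptors, fell by 0.97 (SE 0.14, adjusted p = 0.00464 by edgeR), whereas the regulatory subunit Prkar1b rose by 0.57 (adjusted p = 0.0335) and the kinase inhibitor Pkib by 0.86 (adjusted p = 0.0288).

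Around Ppp1r1b, 7 of 16 genes fell in untreated mice and none rose, where 6.10% of all tested genes fell and 4.58% rose. They include Ppp1ca, a catalytic subunit of the phosphatase that DARPP-32 inhibits, which fell by 0.85 (SE 0.07, adjusted p = 0.000371 by edgeR), Arpp19, which fell by 0.81 (adjusted p = 0.00121), and the phosphatase 2A subunit Ppp2r5d, which fell by 0.76 (adjusted p = 0.00123). Ppp1r1a, the nearest relative of Ppp1r1b, fell by 0.50 (adjusted p = 0.00773). In adenosine handling, Slc29a1, a nucleoside transporter, fell by 0.65 (adjusted p = 0.00657) and Nt5e, which makes adenosine from AMP, by 0.89 (adjusted p = 0.0226). No receptor kinase or arrestin gene of 7 passed in untreated mice. The 2 genes that rose in treated mice, named after their values were seen, were Gng11 (0.71, adjusted p = 0.0377) and the receptor kinase gene Grk4 (0.93, adjusted p = 0.0406). Between treated and untreated mice, no gene of the 107 passed by edgeR, and 12 were higher and 4 lower at an unadjusted P under 0.05 (5.50% of all genes in either direction). DESeq2 called Gng7 as higher.

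**Figure D5:**
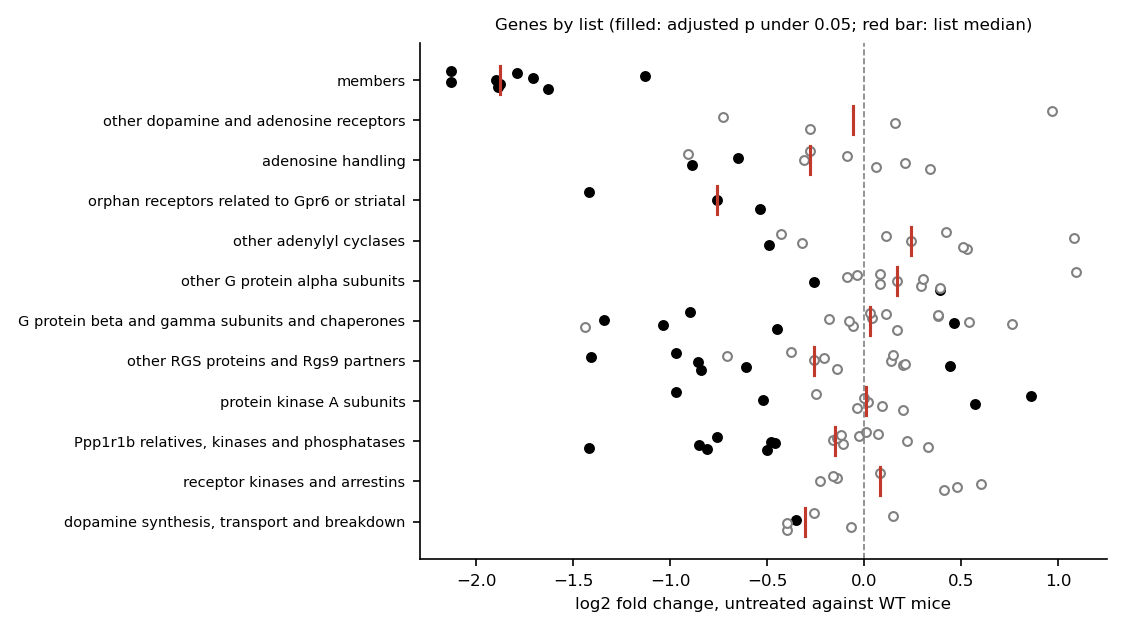
Log2 fold change in untreated against WT mice of the 9 genes (members) and of each list of pathway genes. Each point is a gene, filled where its adjusted p is under 0.05, and the red bars are list medians. The 9 genes lie between −2.13 and −1.13, whereas the pathway lists spread to both sides of 0. When scaled to other projection neuron genes, which shifts the median of all genes by 1.66, no pathway gene is called lower.

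The 5 tested genes whose levels over the 9 mice came closest to the median of the 9 genes were Pde1b, Gm3828, Syndig1l, Rasgrp2 and Sh3rf2. Profiles were log2 CPM relative to WT, and likeness was their root mean square difference, which was 0.12 for Pde1b and at most 0.14 for the other genes. Of the 9 genes themselves, Rgs9 was nearest to their median, at 0.06, and Gnal farthest, at 0.50. Gnal stood at −1.19, −0.94 and −1.24 in untreated mice where the median stood at −1.95, −1.65 and −1.84.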

How the data were processed

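RNA from the striatum of 9 mice was sequenced from 3′ ends with an oligo-dT primer, 1 library per mouse. Per the labels and the study's methods, STAR was used by the authors for alignment and quantification, and the deposited values are whole-number counts for each Ensembl gene, not normalized. The submitters' processing notes also name Trimmomatic 0.39, FastQC 0.11.9, HISAT2 2.2.1 and featureCounts 2.0.1. The mouse genome build, the strand setting and any use of molecular identifiers are not given in the sources used here. The deposited pig counts were not used here.

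Gene symbols came from GENCODE M21 and were found for 94.1% of 55357 IDs; 1 listed gene, Gpr52, was not analysed here. Some listed genes are counted but not reported here by name. The tests used edgeR 4.0.16 in R 4.3.3. Genes were kept by filterByExpr (19463), libraries were scaled by TMM, and all 9 were fitted together with glmQLFit and tested with glmQLFTest, with Benjamini-Hochberg adjustment over all tested genes and a threshold of 0.05. SE values were derived from each log2 fold change and its F statistic, with 6 residual degrees of freedom for 95% intervals. Totals of 27184356 to 32102121 counts limit the precision of Drd3 most. Intervals on counts cover counting error only. Log2 CPM used a prior count of 2. Motifs and figures were made in Python 3.11.15 with matplotlib 3.10.9. The steps were tested on simulated data.

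All 9 genes were named in every comparison, and from each pathway list at most the 3 genes with the smallest P among those called in untreated mice, the nearest relatives of the 9, and genes behind small counts. The genes and lists were chosen with earlier results of these data known. Alternatives were scaling without TMM or by pan-neuronal genes, DESeq2 1.42.0, no filter, a minimum of 10 counts per library, fitting the compared groups by themselves, a replicate block, Y-linked counts as a covariate, a 2-fold threshold with an unadjusted P under 0.05 or 0.01, and each mouse left out. A covariate for cortical markers and scaling by other projection neuron genes were chosen after seeing the data.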

Additional observations from a re-analysis of the deposited data

How the results depend on the processing

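Scaling by other projection neuron genes changed most. It left 3, 1 and 0 of the 9 genes called in untreated against WT, treated against WT and treated against untreated mice, 5, 3 and 4 without overlap of groups, 0 at an unadjusted P under 0.05, and 102, 94 and 63 pathway genes called. It moved the median of all genes by 1.66, 1.13 and −0.53. On that scale 94.3% and 87.3% of all tested genes were called higher in untreated and treated against WT mice. Between treated and untreated mice 46.3% were called lower and 0.0668% higher. The pathway counts therefore say nothing particular to the lists. The share of all genes without overlap of groups was not counted on that scale. Drd1 reversed to 0.04 and 0.13 against WT, Gnal to 0.52, 0.45 and −0.07 in the 3 comparisons, and Adcy5 to −0.04 between HD groups. The Y-linked covariate left 0 of the 9 genes called in treated against WT mice, with 9 and 0 pathway genes called against WT. DESeq2 called 5 of the 9 and 2 pathway genes between HD groups. Pathway calls against WT became 3 and 9 with the cortical covariate, and 5 and 2 at a 2-fold change with an unadjusted P under 0.05 or 0.01. In treated against WT mice they became 11 with pan-neuronal scaling and 12 without a filter, and in untreated against WT mice 17 with only the compared groups. The causes were not tested. The median of all genes moved by −0.31 in untreated against WT mice with pan-neuronal scaling.

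With each mouse left out, calls among the 9 ranged from 8 to 9 in untreated and from 6 to 9 in treated against WT mice, and were 0 between HD groups. Pathway calls ranged from 20 to 37 in untreated and from 6 to 24 in treated mice. The count at an unadjusted P stayed at 8. Where an arm kept 2 mice, the spread came from all groups.

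Mice with the same replicate number are different animals. Their deviations from the group means correlated at −0.081 to 0.236, so the numbers were not taken to pair them. With the replicate block, 8, 8 and 0 of the 9 genes and 33, 17 and 0 pathway genes were called, and Drd3 lost its call in untreated mice (log2 fold change −1.78, adjusted p = 0.0804). Depth limits Drd3, with 12 to 79 reads, more than the other 8 genes, with at least 446.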
